A study of Xenopus laevis with 12 samples.

Results

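The circadian clock genes described here are the rows of the deposited tables whose symbol, without the .L or .S suffix, is clock, per1, per2, per3, cry1, cry2, nr1d1 or nr1d2. *Xenopus laevis* is an allotetraploid frog, so many genes have one copy on the long and one on the short chromosome of a homeologous pair, and the suffix names the copy. The rule found 10 rows among 42638, namely *clock.L*, *clock.S*, *per1.L*, *per2.L*, *per3.L*, *per3.S*, *cry1.L*, *cry2.L*, *cry2.S* and *nr1d1.L*. Thus 7 of the 8 symbols had a row, 3 of them with both copies, and no row carried the symbol nr1d2. All 10 rows passed the filter on low values, which required more than 1.8 CPM (counts scaled to the total of their library) in at least 3 libraries and left 25553 genes.

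The study asked whether the number of embryos raised together changes their response to a teratogen. Whole embryos at Nieuwkoop and Faber stage 35 were profiled by total RNA sequencing in 12 libraries, each from 15 pooled tadpoles, with 3 libraries in each of 4 groups: control embryos in small cohorts of 100, control embryos in large cohorts of 300, and embryos given 90 µM thioridazine, a dopamine receptor blocker, in small or in large cohorts. The labels name no genetic alteration, and the medium was scaled with the cohort. The study's methods have embryos of separate mothers mixed and divided at random between treatments. Its results instead describe the embryos of each experiment as coming from a single clutch. All groups were kept at 14 °C and then at 18 °C during the exposure, which the labels place at stages 12.5 to 35 and the study's methods end earlier, with a short recovery in drug-free medium. The labels also name stage 25 for the embryos, beside stage 35 for the samples. The labels give no time of day, light schedule or batch, and each group was collected at 1 stage, so a rhythm in these genes was not measured.

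The vertebrate clock is a feedback loop of transcription. CLOCK pairs with BMAL1 (the product of *arntl*) and activates the period (*per*) and cryptochrome (*cry*) genes, whose proteins return to the nucleus and repress that pair. In a second loop the pair activates *nr1d1* and *nr1d2*, which encode the REV-ERB heme-binding nuclear receptors, and these repress *arntl*, which the ROR receptors activate. *Xenopus* retina is a classical clock tissue, since its photoreceptors keep time in culture. In a whole embryo RNA of every tissue is mixed, so fewer cells of a type and less RNA per cell cannot be told apart.

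The libraries held between 4887343 and 7497662 estimated counts. On the first principal component, with 29.1% of the variance, thioridazine small replicate 1 and thioridazine large replicate 2 lay apart from the other libraries, at 63.6 and 47.0 against 4.06 to 28.9 in the rest of the treated libraries and values below 0 in every control. Several results that rest on these libraries are given with and without them. All 24 tested genes of a list of whole-embryo tissue markers were detected in every library. With thioridazine averaged over cohort sizes 5 of them fell, where 5.14% of all genes did: *tubb2b.S*, *tubb2b.L*, *krt62.S*, *krt62.L* and *itln1.L*, which encode a neural tubulin, a keratin and an intelectin, by 0.36 to 1.66 on the log2 scale. *hba3.L*, a globin gene, rose by 0.81 in large against small control cohorts.

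No clock gene differed past the threshold between any of the 4 groups. With thioridazine compared with control and averaged over cohort sizes, 0 of 10 clock genes passed the test (limma voom, adjusted p under 0.05 over all genes tested), where 9.04% of all genes did. The same count was 0 by edgeR's quasi-likelihood test and by DESeq2, and 0 without the 2 libraries that lay apart. At an unadjusted p under 0.05 the counts were 2 by voom, 2 by edgeR and 0 by DESeq2, and 23.8% of all genes passed that mark by voom. The 95% intervals of the 10 genes together ran from 0.789-fold to 1.43-fold, so a doubling or a halving of any of them by the drug lay outside its interval.

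Cohort size gave a similar picture with 1 gene standing out by size. With large compared with small cohorts and averaged over treatments, 0 of 10 clock genes passed (background 0.0704% of all genes), with 2 at an unadjusted p under 0.05 by voom (7.72% of all genes), 2 by edgeR and 1 by DESeq2. *cry2.S* had the largest difference, -0.71 on the log2 scale, and the intervals of the other 9 genes ran from 0.765-fold to 1.31-fold. The median difference of the 10 genes was -0.05 (log2) beside 0.00 over all genes, and 1 of the 10, *nr1d1.L*, had a value above 0.

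**Figure D1:**
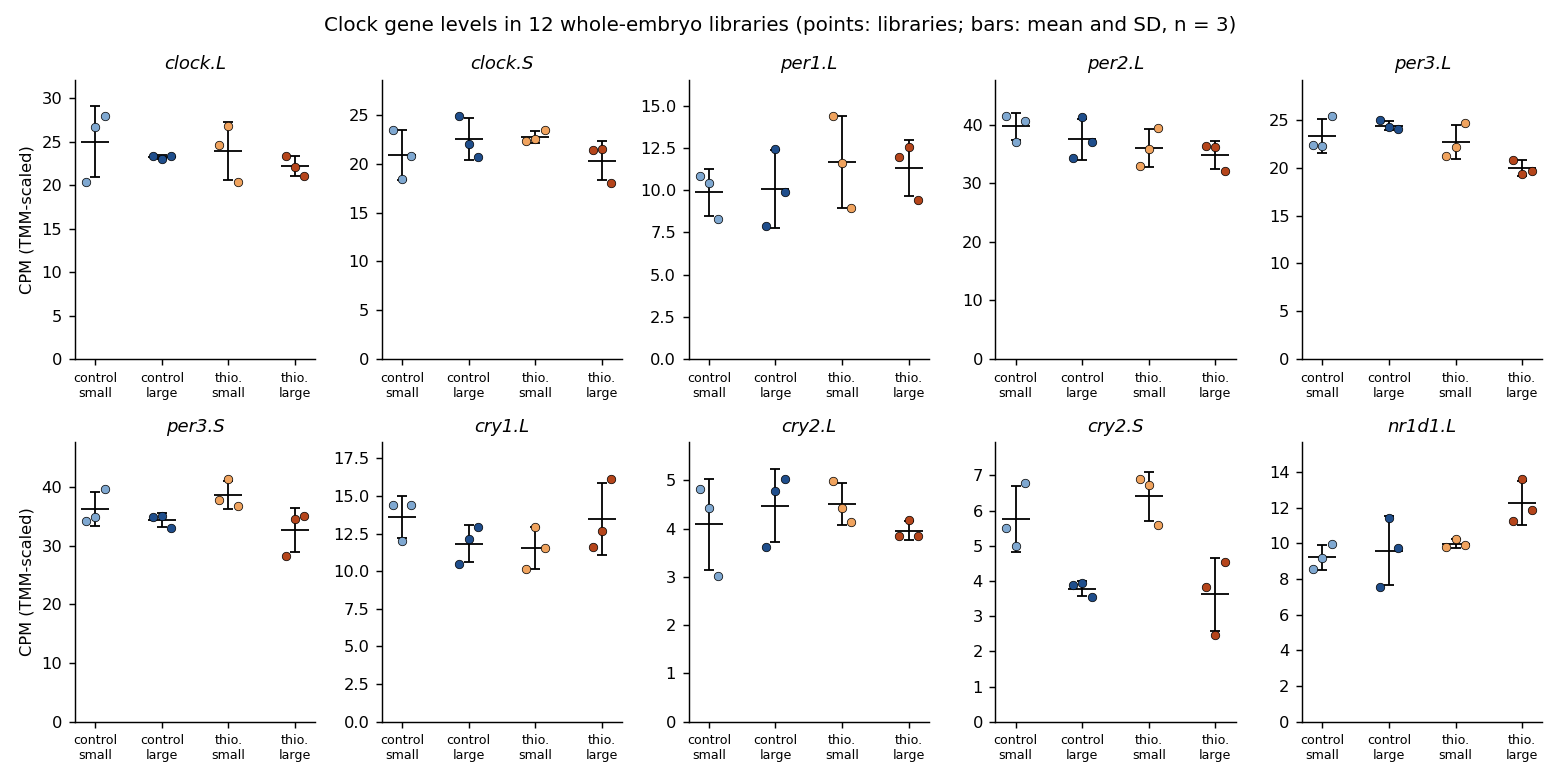
Levels of the 10 clock genes, in TMM-scaled CPM from 0, in the 4 groups of 3 libraries; points are libraries and bars are the mean with the SD. *clock.L*, *per1.L*, *cry1.L* and *cry2.L* overlap among all groups; the *cry2.S* libraries of large cohorts (2.48 to 4.54 CPM) all lie below those of small cohorts (5.0 to 6.90 CPM).

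**Figure D2:**
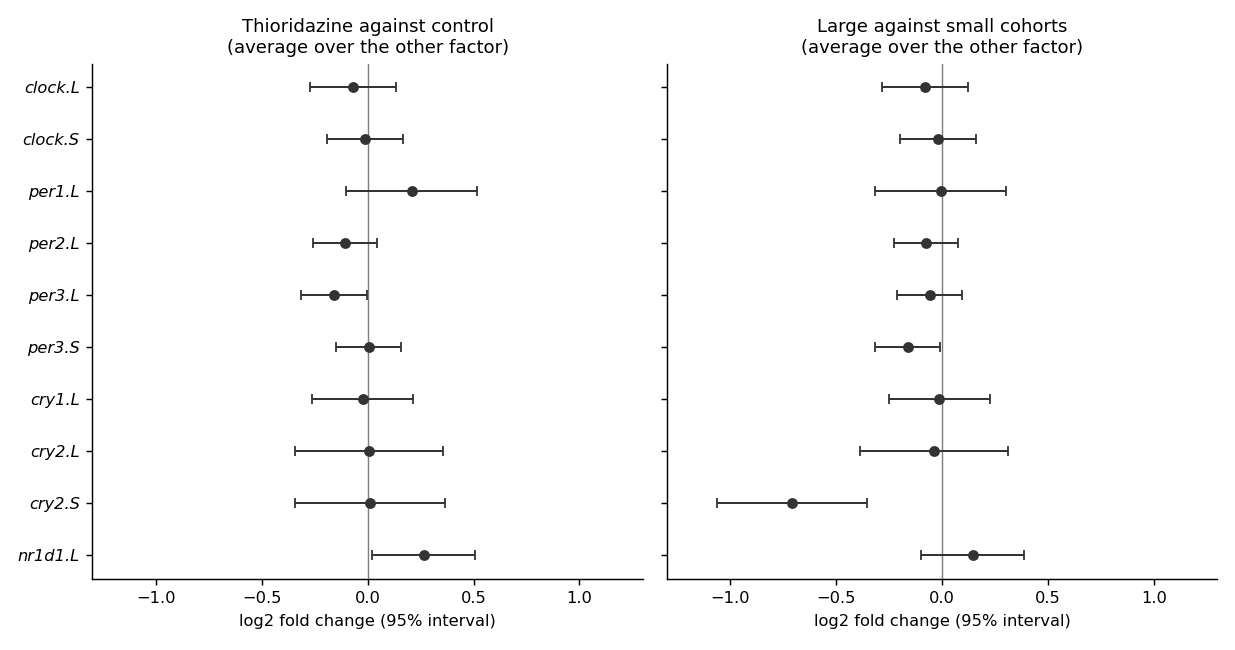
Fitted log2 fold changes of the 10 clock genes with 95% intervals, for thioridazine against control (left) and for large against small cohorts (right), each averaged over the other factor. No gene passed the adjusted threshold; the point farthest from 0 is *cry2.S* between cohort sizes, at -0.71.

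In the positive arm both *clock* copies, which encode the DNA-binding partner of BMAL1, differed little between groups. *clock.L* ranged from 20.3 CPM in thioridazine small replicate 3 to 27.9 in control small replicate 3, and *clock.S* from 18.0 to 24.9. Thioridazine differed from control by -0.07 ± 0.10 (log2, SE; 95% interval -0.27 to 0.13) in *clock.L* and by -0.01 ± 0.09 (-0.19 to 0.17) in *clock.S*. Large differed from small cohorts by -0.08 ± 0.10 in *clock.L* and by -0.02 ± 0.09 in *clock.S*. Neither copy approached the threshold in either comparison.

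The 2 *clock* copies share reads that the quantification divided between them: their estimated counts were fractional in 10 of 12 libraries, but their sum was whole in 12 of 12. The sum ranged only from 39.1 to 49.3 CPM over all libraries, a ratio of 1.26 between the highest and the lowest. Within groups its residual SD was 0.09 (log2), against 0.17 for *clock.L* and 0.13 for *clock.S*. Thioridazine differed from control by -0.05 ± 0.06 in the sum (95% interval -0.18 to 0.09) and large from small cohorts by -0.06 ± 0.06 (-0.19 to 0.07). The summed gene was therefore measured more closely than either copy.

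The partner of *clock* is outside the rule and was in a list fixed for this pathway. *arntl.L*, with 6.52 to 12.8 CPM, differed by 0.23 ± 0.12 with thioridazine (adjusted p = 0.256, limma voom) and by -0.24 ± 0.12 with large cohorts (adjusted p = 0.667), and *arntl.S*, with 9.13 to 13.4 CPM, by 0.03 ± 0.12 and -0.05 ± 0.12. Neither copy passed the test.

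Among the period genes, which encode the repressors that carry the clock's delay, *per2.L* overlapped between treatments and between cohort sizes. In CPM it was 41.5, 37.1 and 40.6 in control small, 34.4, 41.3 and 37.1 in control large, 33.0, 35.9 and 39.5 in thioridazine small and 36.4, 36.2 and 32.1 in thioridazine large cohorts. Control small and thioridazine large cohorts, which differ in both factors, did not overlap, and all other pairs of groups did. For that pair *per3.L*, *cry2.S* and *nr1d1.L* did not overlap either, and the share over all genes was not counted. In *per2.L*, the drug and cohort differences were small. Thioridazine differed from control by -0.11 ± 0.07 (log2; 95% interval -0.26 to 0.04) and large from small cohorts by -0.07 ± 0.07 (-0.23 to 0.08). In zebrafish *per2* is induced by light.

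*per1.L*, the period gene that responds to hormones and cAMP in mammals, varied more, from 7.89 CPM in control large replicate 1 to 14.4 in thioridazine small replicate 1. Its residual SD within groups was 0.28 (log2), the largest of the 10 genes, beside a median of 0.20 over all genes. Thioridazine differed from control by 0.21 ± 0.15 (95% interval -0.10 to 0.52) and large from small cohorts by -0.01 ± 0.15 (-0.32 to 0.30). Without the 2 libraries that lay apart these differences were 0.09 ± 0.15 and 0.03 ± 0.15.

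*per3.L*, a copy of the third period gene, was lowest in the large thioridazine cohorts. Its values in CPM were 22.4, 22.3 and 25.4 in control small, 25.0, 24.3 and 24.0 in control large, 21.3, 22.2 and 24.7 in thioridazine small, and 20.9, 19.3 and 19.7 in thioridazine large cohorts. The 3 large thioridazine libraries lay below all other 9, but how many of all genes split in this way was not counted. In large cohorts thioridazine differed from control by -0.29 ± 0.10 (0.817-fold, 95% interval 0.700 to 0.954; adjusted p = 0.166, limma voom), and *per3.L* was the only clock gene whose groups did not overlap there, where 23.7% of all genes did not. In small cohorts the difference was -0.03 ± 0.10, and the interaction of drug and cohort size was -0.26 ± 0.14 (adjusted p = 0.692), so the 2 effects were not shown to differ. Averaged over cohort sizes the drug difference was -0.16 ± 0.07 (adjusted p = 0.194, limma voom). Without the 2 libraries that lay apart it was -0.13 ± 0.08 (adjusted p = 0.463) and, in large cohorts alone, -0.27 ± 0.12 (adjusted p = 0.349).

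*per3.S*, the other copy, lay lower in large than in small cohorts among treated embryos. It stood at 37.8, 41.4 and 36.8 CPM in thioridazine small and at 28.3, 34.5 and 35.1 in thioridazine large cohorts. These did not overlap, as was so for 10.7% of all genes. Control small (34.2, 34.8 and 39.6) and control large cohorts (34.9, 35.1 and 33.0) overlapped, where 16% of all genes did not. The interaction of drug and cohort size was -0.18 ± 0.15 (adjusted p = 0.806, limma voom). The cohort effects in treated and control embryos were thus not shown to differ. The difference of large from small cohorts was -0.25 ± 0.10 in treated embryos (adjusted p = 0.666, limma voom) and -0.16 ± 0.07 averaged over treatments (adjusted p = 0.617). Without the 2 libraries that lay apart these were -0.32 ± 0.13 (adjusted p = 0.773) and -0.19 ± 0.08 (adjusted p = 0.630). With all 12 libraries, thioridazine differed from control by 0.00 ± 0.07 averaged over cohort sizes (95% interval -0.15 to 0.16).

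The 2 *per3* copies also share divided reads, with fractional counts in 8 of 12 libraries and a whole sum in 12 of 12. The sum ranged from 49.2 to 65.1 CPM. It differed by -0.06 ± 0.06 with thioridazine and by -0.12 ± 0.06 with large cohorts (adjusted p = 0.647), and by -0.16 ± 0.08 with thioridazine in large cohorts (adjusted p = 0.331). Summed, the drug difference in large cohorts was thus smaller than that of *per3.L* alone.

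Cryptochromes are the transcriptional repressors that bind the CLOCK and BMAL1 pair, and *cry2.S* was the clock gene with the largest difference in any comparison of groups. Its counts were 40, 35 and 45 in control small, 29, 19 and 19 in control large, 36, 41 and 42 in thioridazine small and 27, 16 and 26 in thioridazine large cohorts. These correspond to 5.50, 5.0 and 6.79 CPM, 3.88, 3.94 and 3.54 CPM, 6.90, 6.71 and 5.60 CPM, and 3.84, 2.48 and 4.54 CPM. All 6 libraries of large cohorts lay below all 6 of small cohorts, with and without the drug. Libraries of the 2 cohort sizes were separated in this way, in either direction, in 0.325% of all genes.

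Averaged over treatments, *cry2.S* was 0.612-fold in large against small cohorts (95% interval 0.479 to 0.783; log2 -0.71 ± 0.17). Its unadjusted p was 0.000674 and its p adjusted over 25553 genes was 0.181 (limma voom), so it did not pass. An exact two-sided permutation of cohort labels within each treatment gave p = 0.005, the smallest that the 400 arrangements allow. The separation of the libraries within both treatments fixes this p, so it adds nothing to that separation. It is for 1 gene out of 10 clock genes and is not adjusted. The difference was -0.57 ± 0.24 in control embryos (adjusted p = 0.490) and -0.84 ± 0.24 in thioridazine embryos (adjusted p = 0.447), and the interaction was -0.27 ± 0.33. Without the 2 libraries that lay apart these were -0.58 ± 0.22, -0.55 ± 0.26 and 0.03 ± 0.34. Thioridazine itself differed from control by 0.01 ± 0.17 in *cry2.S*.

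The separation rests on few reads, 239 over the 6 small and 136 over the 6 large cohort libraries. Without the 2 thioridazine libraries that lay apart, 1 of which held the lowest and 1 the highest value, the difference was -0.56 ± 0.17 (adjusted p = 0.398). The counts of *cry2.S* and *cry2.L* were whole in 12 of 12 libraries, so no read was divided between these copies.

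The other copy, *cry2.L*, did not show this separation. Its values were 4.81, 4.43 and 3.02 CPM in control small, 3.61, 4.77 and 5.03 in control large, 4.98, 4.42 and 4.14 in thioridazine small and 3.84, 4.18 and 3.84 in thioridazine large cohorts, all overlapping. Large differed from small cohorts by -0.04 ± 0.16 (95% interval -0.39 to 0.31) and thioridazine from control by 0.01 ± 0.16.

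The share of *cry2* reads from the L copy was between 30.8% and 47.0% in small cohorts and between 45.8% and 62.8% in large ones. A fit of the log2 ratio of L to S copy over 6478 homeolog pairs gave a difference of 0.69 ± 0.21 between cohort sizes for *cry2* (95% interval 0.23 to 1.16; unadjusted p = 0.00695, adjusted p = 0.736, limma), and 0 of the 3 clock gene pairs passed, as did 0% of all pairs. In treated against control embryos the *cry2* ratio differed by -0.02 ± 0.21. For *clock* and *per3* the cohort differences in the ratio were -0.07 ± 0.13 and 0.10 ± 0.09. The 2 *cry2* copies summed gave -0.39 ± 0.11 between cohort sizes (adjusted p = 0.279).

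**Figure D3:**
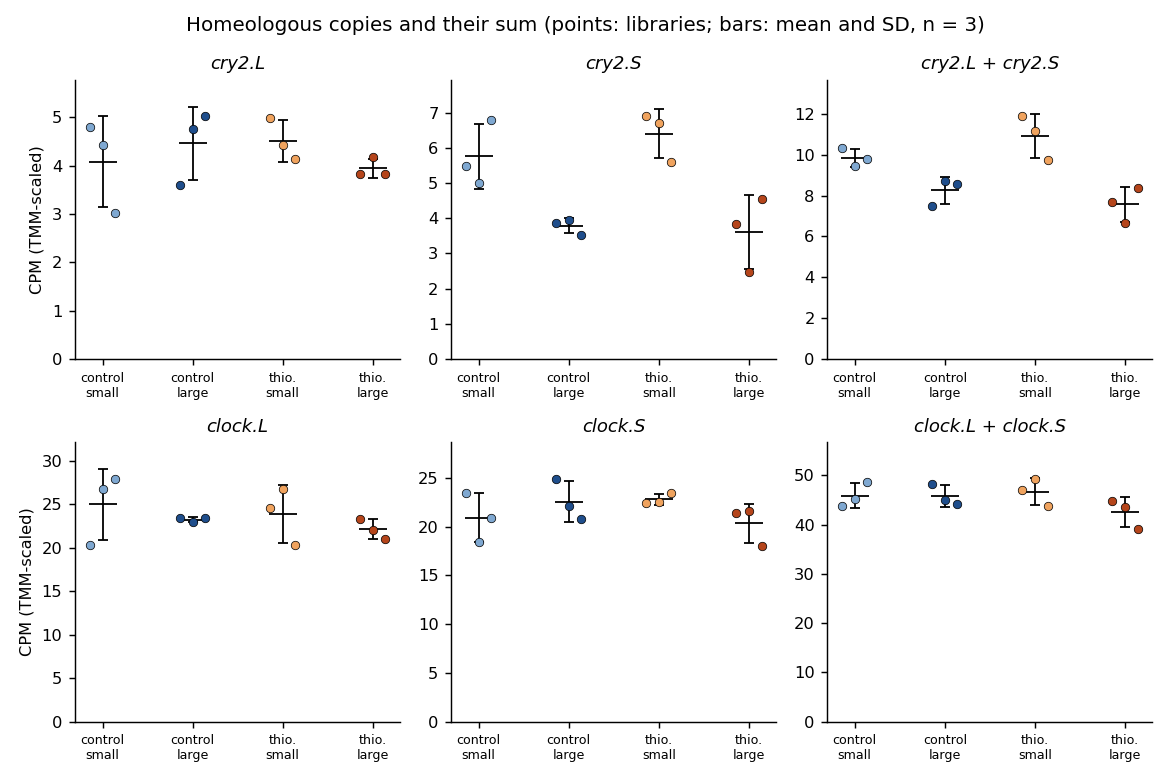
Levels (TMM-scaled CPM, axes from 0) of the L copy, the S copy and their sum for *cry2* (top) and *clock* (bottom) in the 4 groups; points are libraries and bars the mean with the SD of 3. For *cry2* the S copy separates small from large cohorts and the L copy does not. The sum, which includes the S copy, also separates them, at 9.43 to 11.9 CPM in small and 6.66 to 8.71 CPM in large cohorts. The *clock* sum varies less within groups than *clock.L* alone.

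*cry1.L*, the other cryptochrome, ranged from 10.2 CPM in thioridazine small replicate 1 to 16.1 in thioridazine large replicate 3. Thioridazine differed from control by -0.02 ± 0.11 (log2; 95% interval -0.26 to 0.21) and large from small cohorts by -0.01 ± 0.11 (-0.25 to 0.22). It had the smallest interaction p of the 10 genes, at 0.41 ± 0.22 (unadjusted p = 0.0871, adjusted p = 0.688, limma voom): large cohorts were at -0.22 ± 0.16 in control and 0.19 ± 0.16 in treated embryos. *cry1.L* shares divided reads with LOC108712584, a gene model annotated as cryptochrome-1, and their sum was whole in 12 of 12 libraries. For that sum, 29.6 to 43.3 CPM, thioridazine differed from control by 0.01 ± 0.09 and large from small cohorts by 0.06 ± 0.09. The interaction in the sum was -0.05 ± 0.17 (adjusted p = 0.969, limma voom), with a 95% interval of -0.42 to 0.31. Most reads of the sum came from LOC108712584, so a difference confined to *cry1.L* would be smaller in it. In the sum large cohorts were at 0.09 ± 0.12 in control and 0.04 ± 0.12 in treated embryos.

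*nr1d1.L* encodes REV-ERB alpha, a heme-binding repressor of *arntl*, and had the largest difference with the drug. In CPM its values were 8.55, 9.15 and 9.93 in control small, 7.55, 11.4 and 9.75 in control large, 9.78, 10.2 and 9.90 in thioridazine small, and 11.2, 13.6 and 11.9 in thioridazine large cohorts. The highest value lay in thioridazine large replicate 2, a library that stood apart. Control small replicate 3 and control large replicate 2 reached into the range of the treated libraries. Averaged over cohort sizes the gene was 1.20-fold in treated embryos (95% interval 1.01 to 1.42; log2 0.26 ± 0.11; adjusted p = 0.170, limma voom). In large cohorts the difference was 0.41 ± 0.16 (adjusted p = 0.208) and in small cohorts 0.12 ± 0.16, with an interaction of 0.29 ± 0.23. Leaving out control large replicate 1, the lowest library, moved the large-cohort value to 0.21 (adjusted p = 0.624). Without the 2 libraries that lay apart the average was 0.23 ± 0.13 (adjusted p = 0.399) and the large-cohort difference 0.32 ± 0.18 (adjusted p = 0.479).

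Large differed from small cohorts by 0.14 ± 0.11 in *nr1d1.L*. The gene also divides reads with LOC108702483, a model annotated as the same receptor, and the sum, again whole in 12 of 12 libraries, ran from 15.6 to 23.7 CPM. Its drug difference was 0.23 ± 0.09 (95% interval 0.03 to 0.43; adjusted p = 0.144), close to that of *nr1d1.L* alone, and its cohort difference was 0.01 ± 0.09.

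No row bore the symbol nr1d2, but 2 unnamed models, LOC108718924 and LOC108719956, are annotated as this receptor, REV-ERB beta. They are not members by the rule and were looked up after the tables were seen. LOC108718924, at 4.47 to 9.59 CPM, differed by 0.31 ± 0.16 with thioridazine (adjusted p = 0.276, limma voom), and LOC108719956, at 15.1 to 22.8 CPM, by 0.06 ± 0.09 (adjusted p = 0.743). With large cohorts the differences were 0.07 ± 0.16 and -0.09 ± 0.09. Neither passed the test.

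The comparisons within each condition gave counts of the same order. With thioridazine in small cohorts 0 of 10 clock genes passed (background 2.81%), with 0 at an unadjusted p under 0.05 (18.4%) by voom, edgeR and DESeq2. With thioridazine in large cohorts 0 passed (2.24%), with 2 at the unadjusted mark, *per3.L* and *nr1d1.L*, by voom and edgeR (16.9%) and 0 by DESeq2. With cohort size in control embryos 0 passed (0.125%), with 1, *cry2.S*, at the unadjusted mark by voom and edgeR (8.75%) and 0 by DESeq2. With cohort size in treated embryos 0 passed (0.0744%), with 2, *per3.S* and *cry2.S*, by voom and edgeR (6.92%) and 1, *cry2.S*, by DESeq2. In the interaction 0 passed (0.0196%) and 0 reached the unadjusted mark by any of the 3 tools (7.74%).

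Between large and small cohorts of treated embryos 5 of the 10 clock genes did not overlap, *nr1d1.L* being higher and *clock.S*, *per3.L*, *per3.S* and *cry2.S* lower in large cohorts, where 10.7% of all genes did not overlap. Both *per3* copies are among the 5 and share reads, and none passed the test. Reads of *clock.S* and *nr1d1.L* are also divided with a partner. Among treated embryos the *clock* sum was 43.8 to 49.3 CPM in small and 39.1 to 44.8 in large cohorts, which overlap. The sum of *nr1d1.L* and LOC108702483, at 18.8 to 22.1 and 20.2 to 23.7 CPM, overlapped too. The *per3* sum, at 59.0 to 63.5 and 49.2 to 54.8 CPM, did not. In control embryos 1 gene, *cry2.S*, did not overlap between cohort sizes (16% of all genes). With thioridazine in small cohorts the count was 0 (21.7%), and averaged over cohort sizes it was 0 for thioridazine (4.83%). Without the 2 libraries that lay apart 6 clock genes did not overlap between cohort sizes of treated embryos, where 32.7% of all genes did not among the 4 libraries left.

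Genes that act with the clock were examined in lists, and most of them did not pass either. Of 29 genes of clock kinases and ubiquitin ligases, which set the stability of PER and CRY, 1 rose and 0 fell with thioridazine averaged over cohort sizes, with a median of 0.01 (log2) beside 0.00 over all genes, of which 3.9% rose and 5.14% fell. That gene was *usp2.S*, a deubiquitinase gene (0.41 ± 0.11, adjusted p = 0.0279, limma voom). Of 7 genes that are light-induced in zebrafish, 1 rose, *tef.S*, described next. With cohort size averaged over treatments 0 genes of these lists passed, where 0.0704% of all genes did.

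Of the 4 tested genes of the PAR bZIP factors (*dbp*, *tef*, *hlf*), output regulators of the clock, *tef.S* rose by 0.20 ± 0.05 (adjusted p = 0.0284, limma voom), from 59.9 to 71.4 CPM in the 6 control to 68.4 to 82.9 in the 6 treated libraries, which overlap. The other 3 were below 0 without passing: *dbp.L* at -0.18 ± 0.08, *hlf.L* at -0.28 ± 0.14 and *hlf.S* at -0.32 ± 0.21.

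In the negative arm *bhlhe40.L*, which encodes the DEC1 repressor, rose by 0.81 ± 0.21 (adjusted p = 0.0228, limma voom). It was at 3.86 to 6.52 CPM in the controls. Thioridazine small cohorts stood at 15.3, 7.53 and 9.32 and thioridazine large cohorts at 6.68, 10.8 and 8.90, with no overlap with the controls. Its other copy, *bhlhe40.S*, was at 0.00 ± 0.17. Of all genes 4.83% did not overlap between treatments, 3.9% rose and 5.14% fell. Of the 4 *ror* genes, activators of *arntl*, *rora.L* fell by 0.66 on the log2 scale (SE 0.19, adjusted p = 0.0367), with 3.69 to 6.13 CPM in controls and 2.49 to 4.59 in treated libraries. *rora.S* was at -0.53 ± 0.19 (adjusted p = 0.0949), *rorb.S* at -0.45 ± 0.15 (adjusted p = 0.0843) and *rorb.L* at -0.12 ± 0.14.

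Unnamed models annotated as products of this pathway were found after the tables were seen. Of 4 models annotated as NFIL3, a repressor of D-box genes, 2 rose, where 3.9% of all genes did. LOC108707002 rose by 0.45 ± 0.11 (adjusted p = 0.0207, limma voom) and LOC108714854 by 0.53 ± 0.16 (adjusted p = 0.0448). The remaining models, LOC108703485 and LOC108711708, had means of 2.11 and 2.96 CPM in control and 2.10 and 3.51 CPM in treated libraries. The 2 models annotated as the CLOCK and BMAL1 repressor CIART, LOC108699397 and LOC108700366, were at -0.03 ± 0.12 and -0.27 ± 0.17, and the 2 annotated as D site-binding protein, LOC108696680 and LOC108697746, at -0.05 ± 0.12 and 0.26 ± 0.18.

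Each of these calls was lost in some settings. Without the 2 libraries that lay apart, *bhlhe40.L*, *rora.L*, *tef.S*, *usp2.S*, LOC108707002 and LOC108714854 had adjusted p-values of 0.0749, 0.172, 0.0834, 0.131, 0.0905 and 0.187, and with 2 surrogate variables none passed. The first of these variables followed treatment, with -0.31 to -0.15 in the controls and -0.06 to 0.63 in the treated libraries, so that fit also removes variation that goes with the drug.

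Further lists held photoreceptor and pineal, cAMP-responsive and immediate early, glucocorticoid-responsive and heme synthesis genes. Any link of these lists to the clock genes was not tested. With thioridazine averaged over cohort sizes 3.9% of all genes rose and 5.14% fell. Of 17 photoreceptor and pineal genes 15 fell and 0 rose, with a median of -1.16 (log2). Their summed level was 491 to 770 CPM in controls and 199 to 384 CPM in treated libraries. The 4 with the smallest p were *rho.L*, *rho.S*, *gnat1.S* and *sag.S*, from -1.79 to -2.60. Of 22 cAMP-responsive and immediate early genes 14 rose and 1, *nr4a2.L*, fell, with a median of 1.16. In this average the smallest p were in *atf3.S*, *fos.S*, *fosl2.L* and *junb.L*, from 1.48 to 2.16. Within small cohorts 12 of the 22 rose and 0 fell (median 1.48, 2.81% of all genes passing). Within large cohorts 2 rose and 1 fell (median 0.91, 2.24% passing). For the interaction 0 of the 22 passed (0.0196% of all genes). Their summed level was 141 to 153 CPM in controls and 209 to 653 CPM in treated libraries. Both lists were most extreme in the 2 libraries that lay apart, at 199 and 209 CPM and at 653 and 411 CPM. Without these libraries 12 photoreceptor genes fell and 14 immediate early genes rose. With 2 surrogate variables 0 of either list passed, in a fit that called only 67 of 25553 genes, so that 0 says little about the lists.

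Their part in the values of *nr1d1.L*, *per3.L* and *bhlhe40.L* was not tested. Of 13 glucocorticoid-responsive genes 2 rose, *errfi1.S* (0.52) and *sgk1.L* (0.70), where 3.9% of all genes rose. Without the 2 libraries that lay apart 1 did, with *sgk1.L* at 0.43 (adjusted p = 0.0582, limma voom). Of 14 heme synthesis genes, which make the ligand of the REV-ERB receptors, 0 passed, where 9.04% of all genes did, with a median of 0.11 (log2). The smallest p was in *urod.S* (0.44 ± 0.16, adjusted p = 0.100, limma voom). With cohort size averaged over treatments 0 genes of any of these 4 lists passed, where 0.0704% of all genes did.

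**Figure D4:**
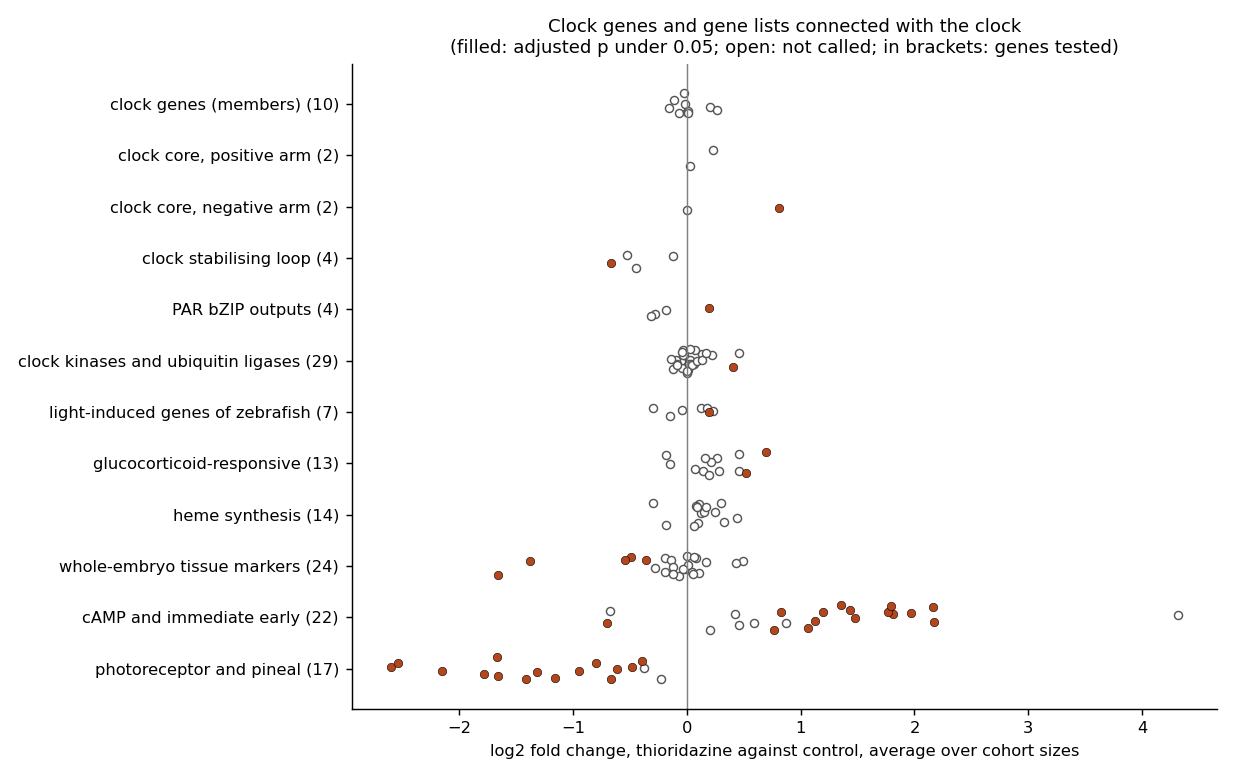
Log2 fold change with thioridazine against control, averaged over cohort sizes, of each tested gene of the clock gene group and of the lists, with the number of genes in brackets; filled points passed the adjusted threshold and open points did not. The 10 clock genes lie between -0.16 and 0.26 and are all open, while most photoreceptor genes are filled below 0 and most immediate early genes filled above 0; the open point at 4.32 is *fosl1.L* (SE 1.38).

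The genes whose pattern over the 12 libraries was most like that of *nr1d1.L*, by Pearson's r of log2 CPM among 16117 named genes with a mean of at least 5 CPM, were *stt3a.L* (0.92), *XB5795058.S* (0.90), *wdr4.S* (0.90), *angpt2.L* (0.88) and *cope.L* (0.87). For *cry2.S* they were *flnc.L* (0.90), *inf2.S* (0.90), *wdr7.S* (0.88), *ret.S* (0.88) and *hoxc6.L* (0.86). These values describe 12 libraries that share depth scaling and group structure, and they are the highest of many.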

How the data were processed

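Total RNA of *Xenopus laevis* embryos was sequenced by the authors from ribosomal RNA-depleted stranded libraries as single-end reads of 75 nt. Reads were trimmed with fastp, ribosomal reads were handled with Bowtie2, and genes were quantified with STAR and RSEM. The sources used here do not state the build behind the counts, their strand setting or the versions of these tools. The files deposited by the authors hold expected counts (RSEM estimated counts, not scaled to depth; 32.6% of values are not whole) and a table of log2 CPM for 26050 genes, all of which voom of the deposited counts gave again within 1e-06.

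Groups came from the sample labels. Counts of genes that exceeded 1.8 CPM in 3 or more libraries were scaled by TMM and fitted with limma 3.58.1 (voom, edgeR 4.0.16, R 4.3.3) without surrogate variables. The study's methods describe 2 of these and a batch adjustment before its principal component plot. It is not stated that they entered its tests. The fit used here called 32 genes for cohort size in control and 19 in treated embryos, as many as the study reports. Only these totals were compared, not the genes or their directions, and the study states that its filter left fewer genes. With 2 surrogate variables the totals were 74 and 24. All 12 libraries entered 1 fit with 7 contrasts, and p-values were adjusted by Benjamini-Hochberg over 25553 genes. On simulated counts for the averaged thioridazine contrast over 25553 genes, 95% of 2-fold and 58% of 1.5-fold changes were recovered. The simulation gave every gene the same spread beyond counting noise, changed only genes above a minimum count and held no libraries that lay apart. These shares therefore do not measure recovery in the real libraries. Log2 ratios of homeologs were fitted with limma-trend. Alternatives were DESeq2 1.42.0 and the quasi-likelihood test of edgeR, both on rounded expected counts, surrogate variables (sva 3.50.0), other scaling and filters, a replicate block and left-out libraries. Sums of copies were added after the data were seen.

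The members and lists were chosen with earlier results of these data known. Named were all members, tested copies of the core clock partners, and from each list the genes called with thioridazine, at most 4 by smallest p, or otherwise the 1 with the smallest p; other names were chosen after their values were seen. Likeness was given for the members with the smallest p for drug and for cohort size. Rows of *npas2*, *rorc*, *nfil3*, *aanat*, *fosb*, *egr2* and *egr3* lay below the filter and were not tested. RefSeq gene records held 94.0% of the symbols; no genome or sequence was used, and levels of different genes are not compared because counts are not scaled to length. Replicates of a group differed beyond counting noise (chi-square per degree of freedom 2.33 to 5.39). The study's reporting summary states that its experiments were independently repeated over several weeks, and does not single out the sequencing libraries. The labels do not say whether replicates came from separate cultures. The p-values thus measure the spread between these libraries, which may be technical.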

Additional observations from a re-analysis of the deposited data

How the results depend on the processing

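No clock gene passed the threshold in any of the 7 comparisons under any of the 22 other settings (21 for the averaged comparisons and the interaction, to which a fit on the compared libraries alone does not apply) or with the partner copy's reads added. The 10 genes had 1559 values under these settings. Where the main 95% interval excluded 0, which was so for few of the results, 0 values changed sign. Where it included 0, signs did change. With thioridazine averaged over cohort sizes *per3.S* kept its sign in 12 of 22 alternatives and *cry2.L* in 13 of 21. The interaction of *clock.L* kept its sign in 10 of 22. With genes above 5 CPM in 3 libraries, *cry2.L* was not tested. Adjusted p-values of *cry2.S* between cohort sizes ran from 0.120 to 0.398 and its log2 difference from -0.79 to -0.39, the latter with the *cry2.L* reads added. Leaving out each library in turn gave -0.79 to -0.59. Across all alternatives *nr1d1.L* with thioridazine ran from 0.16 to 0.33 (adjusted p 0.107 to 0.939) and *per3.L* from -0.19 to -0.04 (0.126 to 0.985). Outside the rule, 2 called genes changed sign with 2 surrogate variables, LOC108714854 to -0.037 and *sgk1.L* to -0.12. The fit with 2 surrogate variables called 67 genes for thioridazine averaged over cohort sizes against 2310 without them. The number called for large against small cohorts was 60 with them and 18 without, 24 by edgeR and 97 by DESeq2.

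Same-numbered libraries of different groups had correlations of their deviations from -0.15 to 0.10, with 1 of 18 over 0.1. Libraries of different number had -0.13 to 0.17, with 5 of 36 over 0.1. No pairing by number was thus seen, though so few libraries a group cannot exclude one. With the replicate block the number of clock genes called was 0 in every comparison. For the *clock*, *per3* and *cry2* pairs of copies the number of ratios called was 0 too. Over all genes 2197 passed for thioridazine averaged over cohort sizes. At this depth *cry2.S* and *cry2.L* had 16 to 45 reads a library, the lowest counts of the 10 genes, and their intervals were the widest in both averaged comparisons.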
